A study of Homo sapiens with 6 samples.

Results

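The genes described here are the human ubiquitin-specific proteases (USP) and ovarian tumour-domain deubiquitinases (OTU), taken by name: symbols that start with USP, OTUD or OTUB followed by a digit, without the copies whose names start with USP17L. This gave 62 of the 20532 genes deposited, 52 with USP names and 10 with OTUD or OTUB names, and 55 of them had enough reads to be among the 13710 genes tested. Stranded mRNA libraries were sequenced from the bone-metastatic breast cancer cell line MDA-MB-231 M3, a subline of the triple-negative human line MDA-MB-231. The 3 control libraries come from cells that the labels call untreated or control, with any transfection or control siRNA not given in the sources used here. A further 3 libraries (siPRMT1) come from the same line after knockdown with a small interfering RNA against PRMT1, an arginine methyltransferase, with its sequence and the time of collection not given in the sources used here. Samples are labelled as biological replicates, but no separate cultures or transfections are named, so p-values measure only sample-to-sample spread here, and that may be technical.

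Ubiquitin is a small protein that cells attach to other proteins, singly or in chains, to mark them for destruction or to change what they bind. Deubiquitinases cut it off again. USP and OTU enzymes are cysteine proteases of separate families: USP enzymes often act on the substrate to which ubiquitin is attached, whereas many OTU enzymes prefer particular kinds of ubiquitin chain. In cancer cells they are known for setting the stability of p53, MYC, growth factor receptors and other short-lived proteins.

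PRMT1 itself had 3160, 2991 and 3072 reads in control and 193, 218 and 181 in siPRMT1 libraries. All 3 knockdown libraries lay far below the controls, at 11.9 ± 0.0607 against 146 ± 2.93 CPM (read counts scaled to library size, SD, n = 3), a log2 fold change of -3.62 (SE 0.0451, adjusted p = 9.06e-297 by the quasi-likelihood test of edgeR). Total counts ran from 16968563 to 20545995 per library, and the scaling factors (trimmed mean of M-values, TMM) were 1.116 to 1.117 in control and 0.895 to 0.897 in siPRMT1 libraries, so library composition differed between the groups. Of 8 markers chosen for MDA-MB-231 cells, 7 were abundant, among them VIM, CD44 and AXL, and SPARC was near 0 (0.495 ± 0.192 to 0.971 ± 0.0923 CPM). The receptors ESR1 and PGR had 5 and 1 reads in all libraries together. ERBB2, also on that receptor list, was expressed, with 7502 reads, at 61.3 ± 1.97 CPM in control and 72.9 ± 2.57 CPM in siPRMT1 libraries. Its log2 fold change was 0.25, and -0.18 after offsets for GC content and transcript length. Several defining markers of other cells were at or near 0: PTPRC 11 reads, CD3E 2, CDH5 1, DCN 5, SP7 1 and OCSTAMP 0. The summed level of the 6 leukocyte markers was 203.7 to 208 CPM in control and 377 to 383 CPM in siPRMT1 libraries, nearly all of it CD68, a lysosomal protein also made by other cells. The summed markers ran from 25.4 to 26.4 and then 20.3 to 21.2 CPM for 5 endothelial genes, from 9.30 to 11.6 and then 22.99 to 26.5 CPM for 5 fibroblast genes, and from 3.15 to 4.70 and then 4.65 to 5.44 CPM for 6 bone-cell genes. Single genes of these lists were expressed: PECAM1 (21.0 ± 0.213 to 20.03 ± 0.441 CPM), KDR (4.41 ± 0.693 to 0.544 ± 0.121 CPM), COL1A1 (7.05 ± 0.987 to 22.9 ± 1.81 CPM) and CALCR (2.45 ± 0.810 to 0.626 ± 0.242 CPM). Their part in the results was not tested.

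Most USP and OTU genes were lower after PRMT1 knockdown. Of the 55 tested, 42 (76.4%) fell and 10 (18.2%) rose at an adjusted p under 0.05 in the quasi-likelihood test of edgeR, with Benjamini-Hochberg adjustment over all tested genes. Among all tested genes 45.0% fell and 44.3% rose, 89.3% in either direction. A change of at least 2-fold was called in 18 members that were lower and 3 that were higher, against 21.0% lower and 15.3% higher of all genes. The median log2 fold change of the 55 was -0.61, with quartiles at -1.11 and -0.22, and that of all tested genes was -0.0082. In 53 of the 55 the control and knockdown libraries did not overlap, 42 lower and 11 higher, where 45.0% and 44.1% of all genes did so. Together the 62 genes took 0.323% to 0.327% of all counts in control and 0.185% to 0.186% in siPRMT1 libraries, and their summed TMM-scaled level was 2918 ± 21.6 CPM against 2069 ± 6.90 CPM, 1.41-fold lower. In RNA from whole cultures, fewer cells making a transcript and less of it per cell cannot be told apart.

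**Figure D1:**
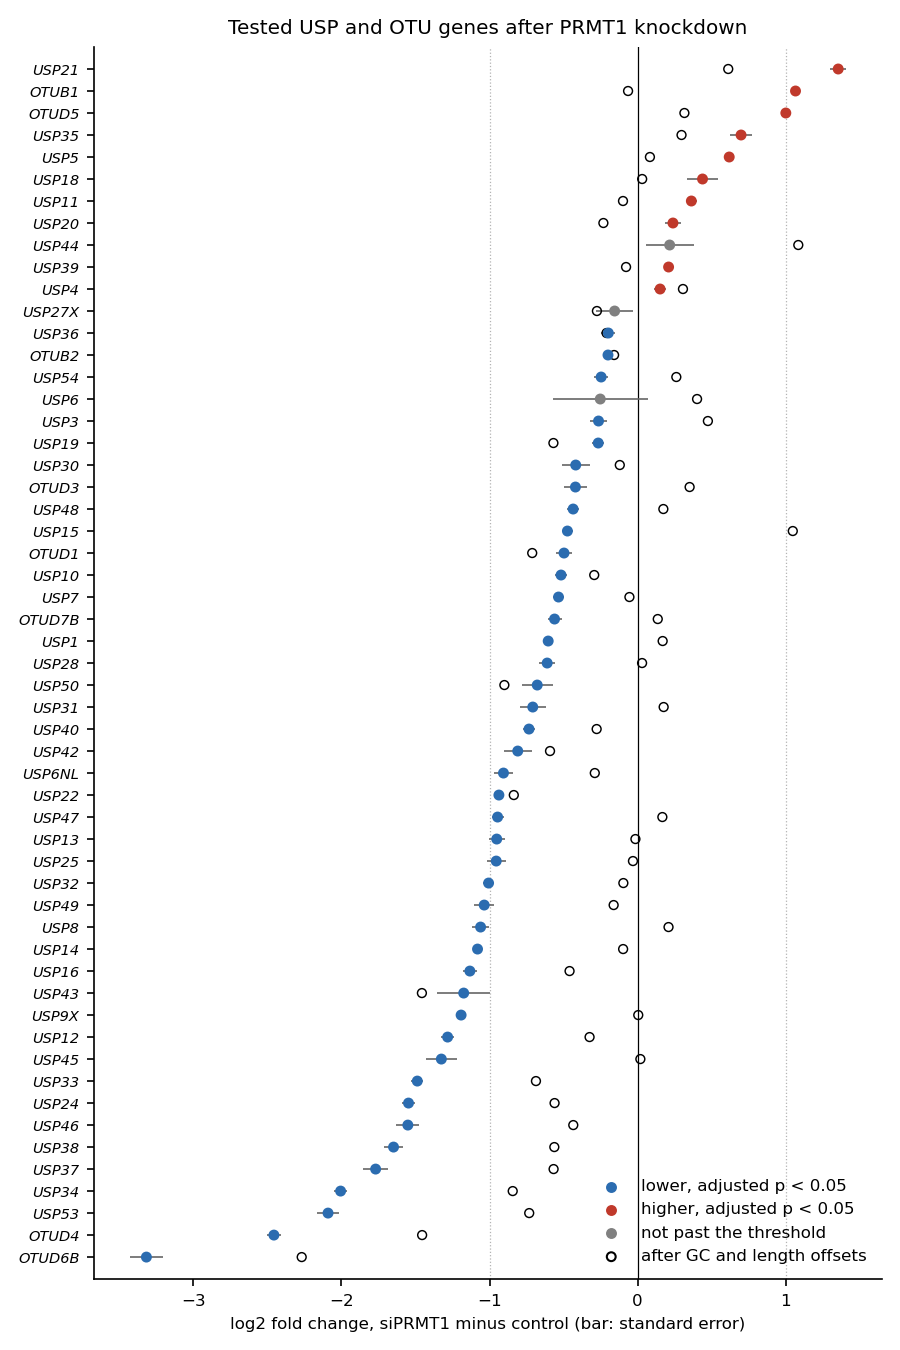
Log2 fold change (siPRMT1 minus control) of the 55 tested USP and OTU genes, ordered by value. Filled points with standard error bars are the TMM-scaled edgeR estimates, blue where lower, red where higher and grey where the test was not passed, and open points are the estimates after offsets for GC content and transcript length. Estimates run from -3.32 for OTUD6B to 1.35 for USP21.

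The direction of these genes varied with the base composition of their transcripts. Members called higher had a median GC content of 57.4% and a median transcript length of 3025 bases, whereas members called lower had 43.5% and 5763 bases. Across the 55 genes the log2 fold change and GC content had a Spearman correlation of 0.72, and length one of -0.52. Over all tested genes the values were 0.65 and -0.56. These points share the same 6 libraries, and the coefficients are a description across genes. All 17 members with 40% to 45% GC were negative, and in that range 76.3% of all genes were negative. The 5 members at 50% to 55% GC were all negative, with a median of -0.50. Of the 2062 genes of that range 38.6% were negative, and their median was 0.23. From 55% GC upward 3 of 10 members were negative, and 14.0% of all genes. Under 40% GC 10 of 11 members and 87.0% of genes were negative, and from 45% to 50% GC 9 of 12 members and 59.6% of genes.

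**Figure D2:**
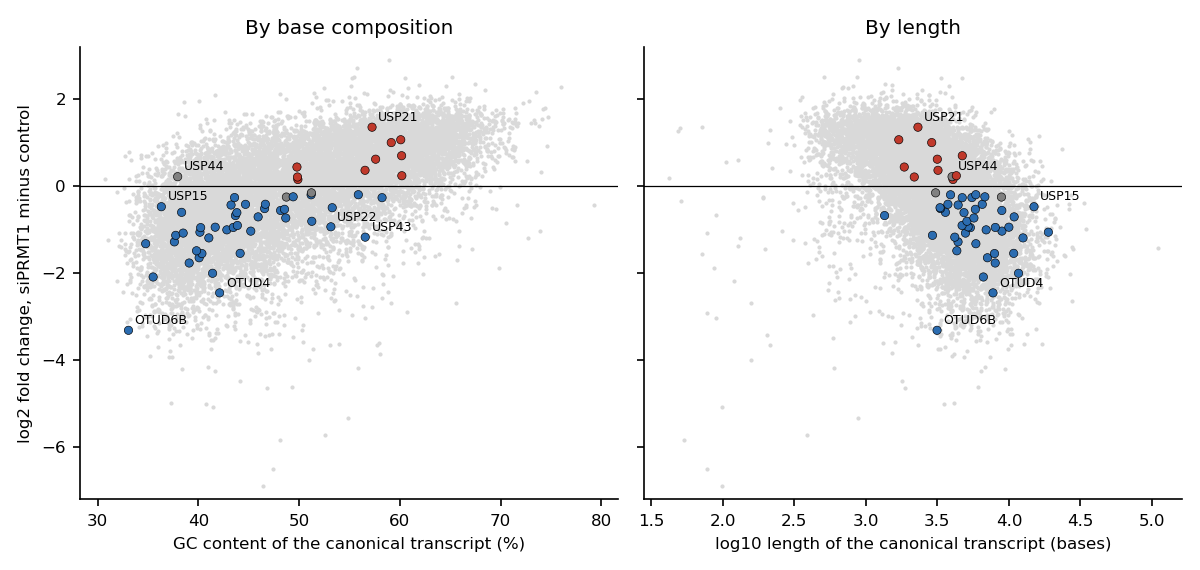
Log2 fold change against transcript GC content in percent (left) and against transcript length in bases on a log10 scale (right), for all tested genes (grey) and for the USP and OTU genes (blue called lower, red called higher, dark grey not passed). Lower values lie toward low GC and long transcripts in both sets, with Spearman correlations of 0.72 and -0.52 for the members.

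When smooth trends with GC content and length were removed from each library as offsets, 29 of the 55 were lower and 15 higher, where 42.7% and 37.5% of all genes were. The members' median became -0.098, and that of all genes was -0.048. The same call was kept by 25 of the 42 lower and 5 of the 10 higher members: OTUD5, USP21, USP35, USP4 and USP5. Another 9 went from lower to higher and 4 from higher to lower. Changes of at least 2-fold remained in OTUD6B, OTUD4 and USP43 on the lower side, where 10.3% of all genes were called, and appeared in USP15 (1.05) and USP44 (1.09) on the higher side, where 4.09% were. The part of GC content and length in the lower levels was not tested beyond these offsets. Below, the value after the offsets stands beside the main one.

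When libraries were scaled by total counts only, the median over all genes shifted by -0.32, and 5 members were then higher and 45 lower. Of all calls 37.7% were then on the higher side instead of 49.6%, and of the 2-fold calls 18.5% instead of 42.1%, or 28.5% with the GC and length offsets. Estimates that changed sign were USP4 at -0.17, USP39 at -0.11, USP20 at -0.08 and USP44 at -0.10. USP11 (0.05) and USP18 (0.12) kept their sign without passing the test. USP21, OTUB1, OTUD5, USP35 and USP5 rose under that scaling too.

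OTUD6B and OTUD4 had the lowest estimates of all members. OTUD6B, an OTU enzyme whose inherited loss causes a developmental disorder, had 21.0, 19.04 and 18.4 CPM in control and 2.05, 2.01 and 1.77 CPM in siPRMT1 libraries. The knockdown libraries were about equally low, and no knockdown library came near a control. Its log2 fold change of -3.32 (SE 0.111) is a 9.97-fold lower level (Benjamini-Hochberg adjusted p = 1.54e-114, quasi-likelihood test of edgeR), and -2.27 after the offsets. OTUD4 (hg38 chr4:145110838-145180589), which acts in Toll-like receptor signalling and in the repair of alkylated DNA, had 79.9, 81.4 and 75.9 CPM in control and 14.1, 14.96 and 14.1 CPM in siPRMT1 libraries. Here too every knockdown library lay far under every control, with a log2 fold change of -2.46 (SE 0.0494), and the value after the offsets was -1.46. OTUD4 overlaps ABCE1 on the opposite strand, and the counting's strand setting was not given in the sources used here.

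Start regions are shown for 4 genes as examples of both directions: OTUD4 among the lowest members, USP21 with the highest estimate, and USP20 and USP33, close relatives that were called in opposite directions before the offsets. Each sequence runs 5' to 3' on the gene's strand, 300 bases around the annotated start, from RefSeq on GRCh38.p14. Capitals mark the GC box letters GGGCGG, the CCAAT box letters CCAAT and the ETS core letters CCGGAAG, on either strand.
OTUD4 (chr4:145180540-145180839, minus strand): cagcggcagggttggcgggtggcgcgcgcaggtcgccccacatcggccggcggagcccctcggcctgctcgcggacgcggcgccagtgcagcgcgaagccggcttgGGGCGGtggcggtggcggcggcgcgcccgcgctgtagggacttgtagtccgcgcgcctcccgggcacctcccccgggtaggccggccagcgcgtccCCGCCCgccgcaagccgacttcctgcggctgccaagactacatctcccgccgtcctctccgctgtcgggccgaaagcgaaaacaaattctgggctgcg
USP21 (chr1:161159250-161159549, plus strand): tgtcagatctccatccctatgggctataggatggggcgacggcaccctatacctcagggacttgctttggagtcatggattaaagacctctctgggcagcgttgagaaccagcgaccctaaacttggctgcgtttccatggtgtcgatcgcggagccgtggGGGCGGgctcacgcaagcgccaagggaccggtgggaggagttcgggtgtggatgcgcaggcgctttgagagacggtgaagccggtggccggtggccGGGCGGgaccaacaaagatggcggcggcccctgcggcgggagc
USP20 (chr9:129835208-129835507, plus strand): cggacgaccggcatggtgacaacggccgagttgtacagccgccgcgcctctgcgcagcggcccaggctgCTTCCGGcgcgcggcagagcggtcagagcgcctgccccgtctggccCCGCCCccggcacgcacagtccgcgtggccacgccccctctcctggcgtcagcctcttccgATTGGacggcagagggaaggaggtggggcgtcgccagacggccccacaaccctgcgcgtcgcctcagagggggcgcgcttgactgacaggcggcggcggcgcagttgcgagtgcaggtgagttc
USP33 (chr1:77759803-77760102, minus strand): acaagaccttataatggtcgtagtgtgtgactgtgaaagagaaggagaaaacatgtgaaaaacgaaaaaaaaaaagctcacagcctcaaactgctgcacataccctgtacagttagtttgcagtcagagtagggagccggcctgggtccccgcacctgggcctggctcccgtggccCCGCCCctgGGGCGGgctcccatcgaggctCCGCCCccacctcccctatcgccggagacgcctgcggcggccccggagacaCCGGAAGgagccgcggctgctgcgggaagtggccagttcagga

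The windows held 46 CpG sites in OTUD4, 39 in USP20, 25 in USP21 and 19 in USP33, where the median was 26 over tested genes and 32.5 over the matched members. OTUD4 and USP20 lay above both medians and USP21 and USP33 below them. GC boxes were found 2 times in OTUD4 and USP21, 3 times in USP33 and 1 time in USP20. The ETS core was found in USP20 and USP33, and a CCAAT box in USP20. RefSeq windows matched 48 of the 62 genes by symbol. A GC box was in 79.2% of those, in 69.4% of the windows of tested genes and in 44.6% of all 27305 windows. It was in 8 of 9 members called higher and in 27 of 34 called lower, so its presence did not separate the directions. The ETS core was in 5 of 9 and 7 of 34, and in 19.0% of tested genes. CCAAT was in 5 of 9 and 9 of 34, and in 36.6% of tested genes. These are matches of letters and not measured binding.

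Chromatin enzymes moved in both directions: of 8 tested, 5 fell, 1 rose and 2 did not pass, where 45.0% of all genes fell and 44.3% rose. After the offsets 4 were lower and 3 higher. USP21, which removes ubiquitin from histone H2A, lies at chr1:161159450-161165723 (hg38) and had the highest estimate of all members, with 17.5, 15.3 and 16.7 CPM in control and 41.2, 43.9 and 41.5 CPM in siPRMT1 libraries. Its knockdown libraries were all more than 2-fold above the controls, the log2 fold change was 1.35 (SE 0.0539), and after the offsets it was 0.61. USP22, the deubiquitinase of the SAGA coactivator complex, had 261, 264 and 264 CPM in control and 137, 136 and 138 CPM in siPRMT1 libraries. The 3 libraries of each group were nearly equal, and the log2 fold change was -0.94 (SE 0.0229) and -0.84 after the offsets. USP22 also had the highest control level per length of all 55, 38.8 ± 0.212 CPM per kilobase of the deposited gene length, against 20.3 ± 0.153 in siPRMT1. USP16 (log2 fold change -1.13) and USP3 (-0.26), both H2A deubiquitinases, fell, and were at -0.46 and 0.47 after the offsets. USP49 (-1.04), which acts on histone H2B, and USP36 (-0.20), a nucleolar enzyme, fell as well, with -0.16 and -0.21 after the offsets. USP27X, a relative of USP22 that uses the same cofactors, was at -0.15 (adjusted p = 0.239, edgeR's quasi-likelihood test, Benjamini-Hochberg). USP44, a regulator of the mitotic checkpoint, was at 0.22 (adjusted p = 0.199, same test) at a low level, 2.61 ± 0.147 to 3.04 ± 0.246 CPM. After the offsets USP27X was -0.27 and USP44 1.09.

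The 3 enzymes activated by the cofactor WDR48 all fell, where 45.0% of all genes fell, and after the offsets 2 were lower and 1 higher. WDR48 fell as well, at -0.57, which was 0.03 after the offsets. USP46 had 22.05, 21.9 and 23.8 CPM in control and 8.50, 7.07 and 7.62 CPM in siPRMT1 libraries. Its paralog USP12 went from 66.8 ± 0.689 to 27.5 ± 0.358 CPM (SD, n = 3), so that both had knockdown values below all controls, at -1.55 and -1.28. After the offsets they were at -0.43 and -0.32, both under 2-fold. USP1, which acts on FANCD2 and PCNA in DNA repair, had 114, 109 and 109.9 CPM in control and 71.9, 72.5 and 75.5 CPM in siPRMT1 libraries. Its groups were separated by a smaller step than those of USP46, at -0.60, and after the offsets USP1 was 0.17. Per length USP1 ranked 2 in control, at 28.8 ± 0.694 CPM per kilobase, and had 18.9 ± 0.505 in siPRMT1.

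Enzymes of p53, the DNA damage response and the cell cycle fell in 8 of 10 cases, where 45.0% of all genes fell, and after the offsets 4 were lower and 3 higher. USP37, which stabilises cyclin A, had 20.2, 19.4 and 18.4 CPM in control and 5.71, 5.87 and 5.39 CPM in siPRMT1 libraries. All knockdown values lay far below the controls, and the log2 fold change was -1.77 (SE 0.0858), or -0.57 after the offsets. USP7, the deubiquitinase of MDM2 and p53, was at -0.53 and at -0.06 after the offsets, where it no longer passed the test. USP10 (-0.52), another p53 deubiquitinase, and USP42 (-0.81) fell with and without the offsets, where they were -0.29 and -0.59. USP42 was the most variable member in the knockdown group, with 8.003, 6.63 and 4.93 CPM, a coefficient of variation of 23.6% where the median member with at least 5 CPM had 4.14%. USP28 (-0.61), known for stabilising MYC, USP45 (-1.33), USP47 (-0.95) and USP48 (-0.44) fell and were at 0.03, 0.02, 0.17 and 0.17 after the offsets.

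OTUB1 and OTUD5 were the members of that group that rose. OTUB1 (hg38 chr11:63985853-64001811), which blocks ubiquitin-conjugating enzymes at DNA breaks, had 80.02, 80.1 and 77.6 CPM in control and 166, 169 and 162 CPM in siPRMT1 libraries. Every knockdown library had more than the highest control by about the same amount. It rose by 1.07 (SE 0.0280) on the log2 scale (Benjamini-Hochberg adjusted p = 4.56e-153, quasi-likelihood test of edgeR), but the value was -0.06 after the offsets. OTUD5, also called DUBA and known for acting on TRAF3, had 66.2, 62.4 and 68.05 CPM in control and 133, 136 and 125 CPM in siPRMT1 libraries. Its groups were equally far apart, at 1.00 (SE 0.0308), and it stayed higher after the offsets, at 0.32.

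**Figure D3:**
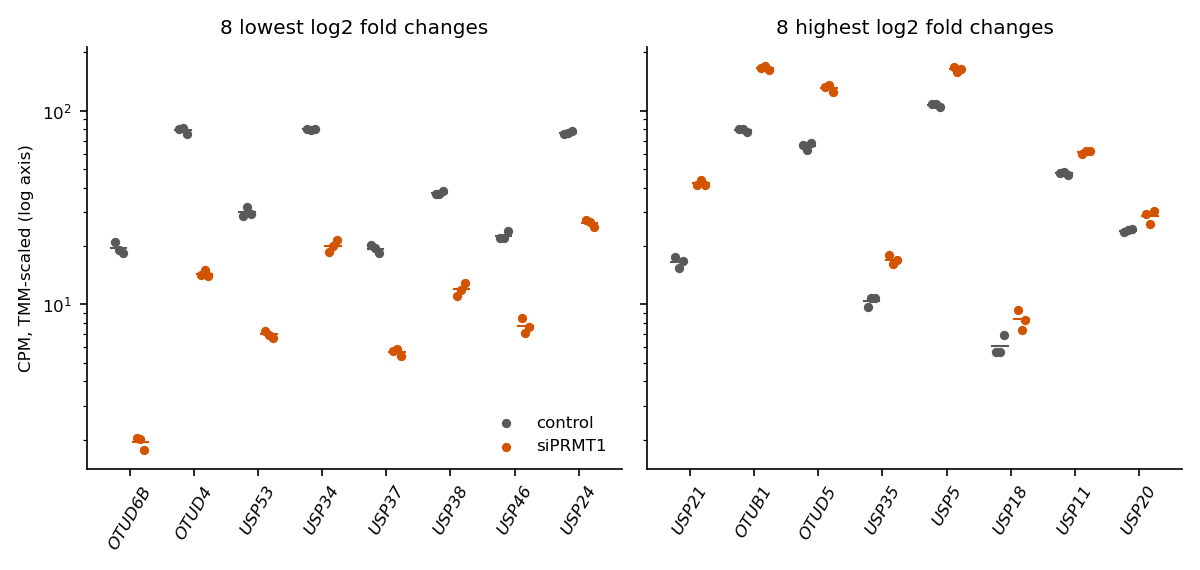
TMM-scaled CPM on a log axis in each of the 3 control and 3 siPRMT1 libraries for the 8 lowest and the 8 highest log2 fold changes among members with a mean of at least 5 CPM that passed the test. Each point is 1 library. Genes were chosen among those whose groups do not overlap. The widest distance on the log axis is that of OTUD6B, from 18.4 CPM in the lowest control to 2.05 CPM in the highest knockdown library.

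Of the enzymes that act at the proteasome or on free ubiquitin chains 3 fell and 1 rose, where 45.0% and 44.3% of all genes did. After the offsets 1 was lower and 1 higher. USP14, which trims ubiquitin from substrates at the proteasome, had 151, 151 and 149 CPM in control and 69.7, 71.02 and 72.9 CPM in siPRMT1 libraries. Every knockdown library lay at about the same distance below the controls, at -1.08, and at -0.10 after the offsets. Its level per length was 25.1 ± 0.250 CPM per kilobase in control and 11.9 ± 0.267 in siPRMT1. USP5, also called isopeptidase T, disassembles unanchored ubiquitin chains and had 107, 108 and 104 CPM in control and 169, 159 and 165 CPM in siPRMT1 libraries. It was higher in every knockdown library, at 0.62 (SE 0.0265) and 0.08 after the offsets. Per length USP5 ranked 3 in control (28.7 ± 0.589 CPM per kilobase) and 1 in siPRMT1 libraries (44.1 ± 1.36). USP13, a close relative of USP5, had 40.5, 40.6 and 36.9 CPM in control and 19.7, 20.9 and 20.4 CPM in siPRMT1 libraries, with no overlap, and was at -0.95 and -0.01 after the offsets. USP25, which is held inactive as a tetramer, was at -0.95 and at -0.03 after the offsets, where it did not pass.

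The enzymes of membranes and organelles included 8 that fell, 2 that rose and 1 that did not pass. Of all tested genes 45.0% fell and 44.3% rose, and after the offsets 6 of these enzymes were lower and 3 higher. USP38 (hg38 chr4:143184917-143223874) had 36.97, 36.9 and 38.3 CPM in control and 11.04, 11.9 and 12.9 CPM in siPRMT1 libraries, and its relative USP35 (chr11:78188812-78215232) had 9.72, 10.7 and 10.8 CPM in control and 17.9, 16.1 and 16.9 CPM in siPRMT1 libraries. They moved in opposite directions in all 3 knockdown libraries, at -1.65 (SE 0.0611) and 0.70 (SE 0.0752), and kept those directions after the offsets, at -0.56 and 0.30. USP33, which binds the von Hippel-Lindau protein and acts in receptor recycling, had 82.9, 87 and 87.3 CPM in control and 31.5, 29.3 and 31.1 CPM in siPRMT1 libraries. Its relative USP20, which binds the same protein, had 23.6, 24.04 and 24.4 CPM in control and 29.4, 25.8 and 30.2 CPM in siPRMT1 libraries. USP33 was clearly lower, at -1.49 (SE 0.0405), and USP20 slightly higher, at 0.24 (SE 0.0547), where the lowest knockdown library of 25.8 CPM lay close above the highest control of 24.4 CPM. After the offsets USP20 was -0.23 and USP33 -0.69.

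Other enzymes of that group fell. USP8, the endosomal enzyme for growth factor receptors, was at -1.06 and at 0.21 after the offsets. It overlaps USP50 (-0.68, -0.90 after the offsets) on the opposite strand. Without the strand setting of the counting, reads from the stretch that USP8 and USP50 share cannot be told apart. In all, 15 of the 55 tested members overlap another gene of the deposited annotation, mostly on the opposite strand. USP30, on the outer mitochondrial membrane, went from 9.67 ± 0.926 to 7.20 ± 0.644 CPM (-0.42), and USP19, anchored in the endoplasmic reticulum, was at -0.27. After the offsets USP30 was -0.12, not passing the test, and USP19 -0.57. USP32 fell by 1.01 on the log2 scale and was at -0.10 after the offsets, and OTUD3 was at -0.42 and at 0.35 after the offsets. USP6, a near-identical copy of part of USP32, had under 1 CPM in every library and was at -0.25 (adjusted p = 0.454, edgeR's quasi-likelihood test, Benjamini-Hochberg), and reads of the pair may have been split by the authors' counting. USP6 was at 0.40 after the offsets.

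The USP4 family and the splicing factor USP39 showed small changes. USP4 had 41.6, 43.4 and 41.9 CPM in control and 44.1, 49.3 and 47.3 CPM in siPRMT1 libraries. USP11 had 47.6, 48.2 and 46.4 CPM in control and 59.3, 61.7 and 61.7 CPM in siPRMT1 libraries. USP15 had 71.8, 69.2 and 68.7 CPM in control and 51.99, 49.7 and 49.4 CPM in siPRMT1 libraries. All 3 act in TGF-beta receptor signalling and share their domain order. Knockdown libraries lay above the controls for USP4 and USP11 and below them for USP15, at 0.15 (SE 0.0425), 0.36 (SE 0.0389) and -0.47 (SE 0.0375). The offsets turned USP11 to -0.10 and USP15 to 1.05, with USP4 at 0.31. USP39, a protein of the spliceosome that lacks the catalytic residues of its family, was at 0.21 and at -0.08 after the offsets. USP4 overlaps C3orf62 on the same strand.

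All 4 members placed with Wnt, Hippo and TGF-beta signalling fell, where 76.4% of the tested members and 45.0% of all genes fell. After the offsets 3 were lower, and USP9X did not pass. USP34, a very large enzyme that acts on axin in Wnt signalling, had 80.7, 79.6 and 80.3 CPM in control and 18.6, 20.01 and 21.3 CPM in siPRMT1 libraries. Every knockdown library was far under every control, and the log2 fold change was -2.01 (SE 0.0455), or -0.84 after the offsets, which is under 2-fold. USP9X, which acts on MCL1 and SMAD4, was at -1.19 and at 0.00 after the offsets. OTUB2, known for stabilising YAP and TAZ, had 105, 107 and 102 CPM in control and 94.98, 87.99 and 89.9 CPM in siPRMT1 libraries. The highest knockdown value was under the lowest control, and the log2 fold change was -0.20 (SE 0.0303), or -0.16 after the offsets. Per length it had 24.6 ± 0.592 CPM per kilobase in control and 21.4 ± 0.853 in siPRMT1. OTUD1 was at -0.50 and at -0.71 after the offsets. Of the enzymes of NF-kB and innate signalling OTUD4 and OTUD7B fell and USP18 rose: this protease removes the ubiquitin-like protein ISG15 and had 5.71, 5.70 and 6.96 CPM in control and 9.37, 7.40 and 8.28 CPM in siPRMT1 libraries. Its groups lay close together without overlap, the highest control at 6.96 CPM and the lowest knockdown library at 7.40 CPM, and the log2 fold change of 0.44 (SE 0.103) was 0.03 after the offsets. OTUD7B, which prefers chains linked through lysine 11, was at -0.56 and 0.14.

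The 8 members with other or less settled roles all fell, where 45.0% of all genes fell. After the offsets 6 were lower and 1 higher. USP53, a protein of tight junctions, had 28.5, 31.9 and 29.2 CPM in control and 7.32, 6.96 and 6.70 CPM in siPRMT1 libraries. Its knockdown libraries were alike and far under the controls, at -2.09 (SE 0.0736) and -0.73 after the offsets. USP24 had 75.8, 76.9 and 78.02 CPM in control and 27.2, 26.5 and 25.1 CPM in siPRMT1 libraries, an equally clean separation at -1.55 (SE 0.0429) and -0.56 after the offsets. USP43 (-1.17) fell at a low level, and USP40 (-0.73), USP31 (-0.71) and USP54 (-0.25) fell by less than 2-fold. After the offsets USP43 was -1.46, USP40 -0.28, USP31 0.18 and USP54 0.26. USP6NL (-0.91, -0.29 after the offsets) matched by name but encodes a GTPase-activating protein for RAB GTPases, and without it 41 members fell and 10 rose.

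The other 7 members had too few reads for the filter. USP26, USP29, OTUD6A and USP9Y had no read in any library. By a limit of 3 counts per library this allows up to 0.146 to 0.177 CPM, here by total counts without TMM scaling. USP2 had 4, 2 and 0 reads in control and 2, 2 and 3 in siPRMT1 libraries. USP51 had 3, 2 and 8 against 4, 3 and 3. OTUD7A had 1, 1 and 6 against 2, 4 and 1. These 3 were called in neither direction when the filter was left out. At such depth no difference was detectable. The limits cover counting error only.

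Close relatives were then compared within each library, by the log2 ratio of their counts, a quantity that TMM scaling does not touch. All 17 pairs separated the groups without overlap, where 44.1% of all tested genes were higher and 45.0% lower without overlap, so separation was the usual outcome in these libraries. Each exact permutation test gave p = 0.1 (two-sided, Benjamini-Hochberg adjusted 0.1 over 17), the smallest that 3 against 3 samples can give. In 6 pairs 1 relative rose and the other fell before the offsets. Of these 6 only USP35/USP38 kept both calls in the same directions after the offsets, where 5 of the 17 pairs were called in opposite directions. Some genes of the 6 pairs overlap another annotated gene: USP4 and USP13 on the same strand, and USP13, USP15, USP20, OTUB1 and OTUB2 on the opposite strand. The effect of such overlaps on the ratios was not tested. For USP35 over USP38 the log2 ratio was -1.93, -1.78 and -1.82 in control and 0.69, 0.43 and 0.39 in siPRMT1 libraries. The order of the pair turned, a change of 2.35. For USP20 over USP33 it was -1.81, -1.86 and -1.84 in control and -0.10, -0.18 and -0.04 in siPRMT1 libraries. USP33 had clearly more reads than USP20 in control libraries and nearly equal reads after knockdown, a change of 1.73.

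For OTUB1 over OTUB2 the log2 ratio was -0.39, -0.41 and -0.39 in control and 0.80, 0.94 and 0.85 in siPRMT1 libraries, and the pair changed order, by 1.26. USP5 already had more reads than USP13, and the ratio rose by 1.57. USP11 over USP15 rose by 0.84 and USP4 over USP15 by 0.62. After the offsets the change was 0.86 for USP35/USP38, 0.46 for USP20/USP33, 0.10 for USP5/USP13 and 0.09 for OTUB1/OTUB2, and it reversed to -1.15 for USP11/USP15 and -0.74 for USP4/USP15. In the 6 pairs the riser had the higher transcript GC content: USP35 60.2% against USP38 40.1%, USP20 60.2% against USP33 39.8%, USP5 57.6% against USP13 43.5%, OTUB1 60.1% against OTUB2 51.2%, and USP11 56.5% and USP4 49.9% against USP15 36.3%. Among pairs that fell together before the offsets, USP53 fell more than USP54, by -1.85. The difference kept its sign after the offsets at -0.99, where USP53 was lower (-0.73) and USP54 higher (0.26).

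**Figure D4:**
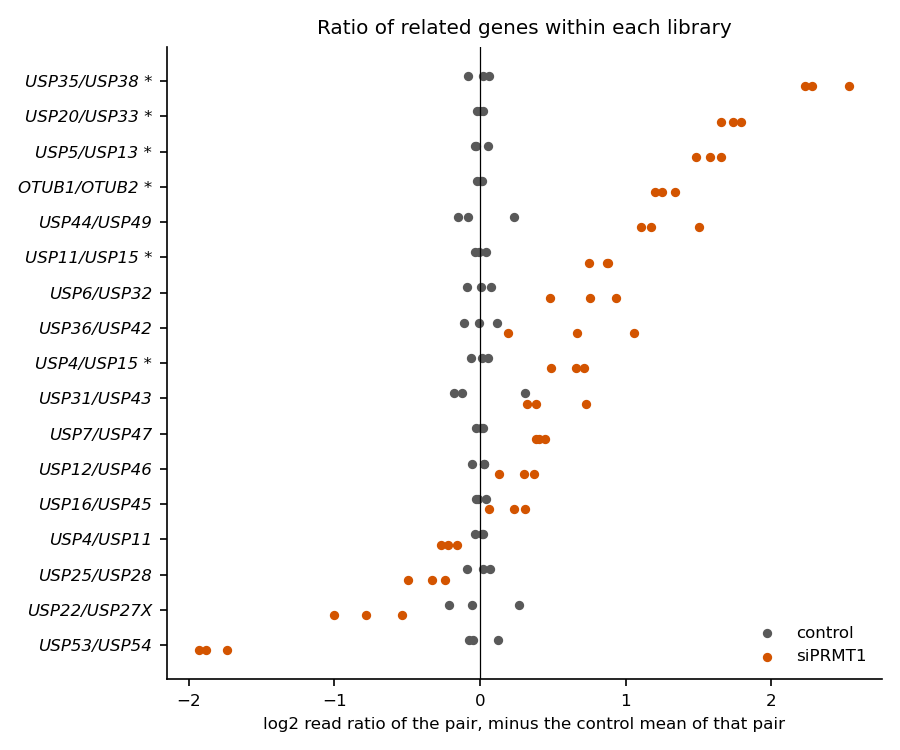
Log2 ratio of the counts of 2 close relatives within each library, minus the mean of the control libraries, for 17 pairs. Each point is 1 library, and asterisks mark the 6 pairs called in opposite directions before the offsets. The groups do not overlap in any pair, with the largest shift at 2.35 for USP35 over USP38.

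Other deubiquitinase families gave a mixed picture. All 7 other OTU genes fell, with a median of -0.98, where 45.0% of all genes fell. Their median transcript GC content was 40.1%, and from 40% to 45% GC 76.3% of all genes were negative. Among them were YOD1 (-1.45), VCPIP1 (-1.36), TNFAIP3 (-1.17), the NF-kB inhibitor also called A20, and OTULINL (-0.98). After the offsets 2 of the 7 were lower and 2 higher, where 42.7% and 37.5% of all genes were. YOD1 was then -0.22, VCPIP1 -0.06, TNFAIP3 -0.89 and OTULINL 0.10. The 3 other genes with a USP fold fell too, against the same 45.0% of all genes: CYLD (-1.66), an NF-kB inhibitor, PAN2 (-1.01), a subunit of a poly(A) nuclease, and USPL1 (-0.72), a SUMO protease. They were at -0.49, -0.83 and 0.01 after the offsets. Of the ubiquitin C-terminal hydrolases BAP1 (0.57) and UCHL3 (0.23) rose and UCHL5 (-0.87) fell, and UCHL1 had no read. After the offsets these 3 were all higher, at 0.05, 0.13 and 0.43. In the Josephin family JOSD2 rose (1.25), and ATXN3 (-0.86) and JOSD1 (-0.26) fell. The offsets reversed JOSD2 to -0.30 and ATXN3 to 0.37, with JOSD1 at -0.24. In the MINDY and ZUP1 group 4 of 5 fell, MINDY2 by 2.93 on the log2 scale (-1.60 after the offsets), and MINDY4 was at 0.05 (adjusted p = 0.714, edgeR's quasi-likelihood test, Benjamini-Hochberg). After the offsets all 5 were lower, where 42.7% of all genes were, with MINDY4 at -0.31.

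Of 11 genes listed with the JAMM family 7 rose, where 44.3% of all genes rose, with the complex subunits COPS6 (1.06), EIF3H (0.88) and EIF3F (0.94) among them. The list mixes such subunits with enzymes, and protease activity was not measured. The other 4 fell, with BRCC3 at -2.69, MYSM1 at -2.69, STAMBP at -0.32 and STAMBPL1 at -0.22. After the offsets 5 were higher and 4 lower. BRCC3 and MYSM1 stayed lower, at -2.23 and -1.32, COPS6 was at 0.22, EIF3H at 1.59 and EIF3F at 2.02, STAMBP reversed to 0.44, and STAMBPL1 was at -0.33. Of genes that encode ubiquitin, RPS27A rose from 450.0 ± 4.83 to 1039 ± 11.6 CPM and UBB from 892 ± 2.36 to 1490.0 ± 7.56 CPM, at 1.21 and 0.74. Both were higher in the libraries in which most USP and OTU transcripts were lower. After the offsets RPS27A was 1.03 and UBB -0.10.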

How the data were processed

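RNA of 3 control and 3 siPRMT1 samples was read as pairs of 150 bases from stranded libraries, per the labels' protocols. The authors deposited raw read counts for each gene as whole numbers, with gene lengths and coordinates, per the file headers. Per the submitters' processing notes the tools were edgeR 3.40.2, featureCounts with Subread 1.5.1, STAR 2.7.6a and fastp 0.23.2, on hg38, with no roles named. Annotation release, strand setting and handling of duplicates were not given in the sources used here. Total counts were 16968563 to 20545995 per library, and no 2 libraries of a group agreed within sampling noise.

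Genes were kept by edgeR's filterByExpr (13710) and compared with edgeR 4.0.16 under R 4.3.3, using TMM scaling, glmQLFit and glmQLFTest, Benjamini-Hochberg adjustment over all tested genes, threshold 0.05. Fold changes are siPRMT1 minus control, levels are TMM-scaled CPM, and levels per length divide these by the deposited gene length. Standard errors (SE) were derived from the test, as the size of the log2 fold change over the square root of its F statistic. The common dispersion, 9.77e-05, is the lowest value the default search allows. The steps were tested on simulated data of a larger dispersion, which does not show how they behave at the dispersion found here. Offsets were per-library splines with 5 degrees of freedom on GC content and length of GENCODE 44 transcripts, known for 13694 genes. Close relatives were compared by exact permutation tests. Alternatives were RLE, upper-quartile and library-size scaling, DESeq2 1.42.0, limma-voom (limma 3.58.1), no filter, at least 1 CPM in 3 samples, a replicate block, and leaving out each sample. Members, lists and roles were chosen with earlier results of these data known. Values in every library are given by rule for PRMT1, the 8 highest and 8 lowest called members of at least 5 CPM on average without overlap, relatives that moved oppositely, and the 5 highest levels per length. Of each other family the 4 genes of smallest adjusted p are named, with those that did not pass, and further members of small families were added after their values were seen. Some genes that this rule takes are not reported here. Gene coordinates were not converted between builds.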

Additional observations from a re-analysis of the deposited data

How the results depend on the processing

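RLE and upper-quartile scaling, DESeq2, limma-voom, no filter, the filter of at least 1 CPM in 3 samples (54 members tested) and leaving out each of the 6 samples left 10 members higher and 42 lower, with the call of every tested member kept. Replicate numbers did not pair the samples: the same-number correlations of deviations were -0.01, 0.04 and 0.0015, and not every sample correlated best with its own number. With the replicate block 10 members were higher and 42 lower.

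With library size alone 5 members were higher, 1 of them at least 2-fold, 901 genes were at least 2-fold higher, and 37.7% of calls were higher instead of 49.6%. USP4 (-0.17), USP39 (-0.11), USP20 (-0.078) and USP44 (-0.10) changed sign.

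With GC and length offsets 561 genes were at least 2-fold higher and 1408 lower, instead of 2095 and 2881 (559 and 1408 with the replicate block added), and 3 members were at least 2-fold lower in both fits. Higher genes were then 28.5% of the 2-fold calls instead of 42.1%. Members that changed sign were OTUB1 (-0.064, with the block -0.066), OTUD3 (0.35, 0.36), OTUD7B (0.14, 0.13), USP1 (0.17), USP11 (-0.10), USP15 (1.05), USP20 (-0.23), USP28 (0.030, 0.031), USP3 (0.47, 0.48), USP31 (0.18), USP39 (-0.078, -0.079), USP45 (0.019, 0.014), USP47 (0.17), USP48 (0.17), USP54 (0.26), USP6 (0.40), USP8 (0.21) and USP9X (0.0045, 0.0046). Changes of the log2 ratio that reversed were USP4/USP15 (-0.74), USP4/USP11 (0.40), USP11/USP15 (-1.15), USP16/USP45 (-0.48) and USP7/USP47 (-0.22). The cause was not tested. Depth limits USP6, under 1 CPM in every library, and the 7 members that did not pass the filter.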

Other observations

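Partners and substrates of these enzymes were listed from general knowledge and described by the same fit. Of 16 cofactors and partners 9 fell and 7 rose, where 45.0% and 44.3% of all genes did, and their median was -0.27 on the log2 scale and -0.052 after GC and length offsets. G3BP1, the partner of USP10 in stress granules, was at -1.10, STAM2 and STAM, the endosomal partners of USP8, at -1.57 and -1.02, and ATXN7, a subunit of the SAGA deubiquitinase module, at -1.88. After the offsets G3BP1 was 0.24, STAM2 -0.31, STAM -0.22 and ATXN7 -1.10. Among the 7 partners that rose were ATXN7L3 (0.39) and ENY2 (0.20), which were at -0.09 and 0.81 after the offsets. Of 32 tested substrates 23 fell, 8 rose and 1 did not pass, with a median of -0.48, and after the offsets 18 were lower and 12 higher. HIF1A, the hypoxia factor, was at -3.50, YAP1, the Hippo effector, at -2.25, and MCL1, an inhibitor of cell death, at -1.21, whereas PARK7 was at 1.16. After the offsets they were at -2.74, -1.52, -0.79 and 0.74. FANCI was at -0.06 (adjusted p = 0.106, edgeR's quasi-likelihood test, Benjamini-Hochberg), and at 0.59 after the offsets. These are transcript levels, and the proteins were not measured.

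Of the 9 genes for E1 enzymes, which activate ubiquitin and related proteins, 5 rose and 4 fell, where 44.3% and 45.0% of all genes did. The ubiquitin E1 genes moved apart: UBA1 went from 351 ± 6.17 to 515 ± 3.93 CPM (SD, n = 3), at 0.55, and UBA6 from 97.7 ± 2.89 to 30.4 ± 1.27 CPM, at -1.69. UBA2, of the SUMO pathway, was at -1.19 and UBA3, of the NEDD8 pathway, at -0.74. After the offsets UBA1 was 0.14, UBA6 -0.19, UBA2 -0.68 and UBA3 -0.36.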
